A study of Saccharomyces cerevisiae with 12 samples.

Results

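The comparison followed Saccharomyces cerevisiae cells that lacked Mrn1, an RNA-binding protein, as they were moved from glucose, which yeast ferments, to ethanol and glycerol, which it can only respire. It rested on the 6 mrn1Δ libraries of a 12-library RNA-seq series: 3 fermentative and 3 respiratory. The other 6 libraries, 3 per condition, came from the wild-type and are used here only to ask whether a change differed between the genotypes. Both strains were BY4741, a haploid laboratory strain, and in mrn1Δ the MRN1 coding sequence had been replaced by a drug-resistance cassette, so that both mrn1Δ groups carried the same deletion. Fermentative cells were collected in log phase at an OD600 of 0.6 from YEPD, a rich medium with 2% glucose. Respiratory cells were grown the same way and then held for 20 min in YEPEG, which has 2% ethanol and 2% glycerol in place of glucose. The groups thus differ in the transfer and the added time as well as in the medium, and these cannot be told apart. The values describe an early point of the shift and not steady growth on the new carbon sources. No added RNA standard is described, so every value is a share of a library, and a change in one gene's share cannot be told apart from a change in the total of the others.

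In glucose, yeast takes up hexoses through low-affinity transporters, makes ethanol, and keeps genes for other carbon sources repressed through Mig1 and its corepressors. When glucose is gone, the Snf1 kinase relieves that repression, activators such as Adr1, Cat8 and Hap4 turn on genes for ethanol, acetate, fatty acids and respiration, and lower protein kinase A activity lets the stress factors Msn2 and Msn4 act. The same loss of signal shuts down transcription of ribosomal protein and ribosome biogenesis genes. Mrn1 binds mRNAs, among them several that encode mitochondrial and cell wall proteins.

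The mrn1Δ libraries held 19045188 to 25274670 counts, and log2 levels correlated across 5495 genes at 0.994 to 0.996 between replicates and at 0.774 to 0.797 between conditions. MRN1 was nearly absent from all of them, with 15, 2 and 4 counts in fermentative and 2, 8 and 10 in respiratory libraries. The BY4741 deletions showed as 0 to 2 counts of LEU2, 1 to 12 of MET17 and 0 to 3 of URA3, whereas HIS3 kept 350 to 1126 counts. The a-type genes STE2, STE6 and BAR1 were present at 66.6 CPM (TMM-scaled counts per 1000000) or more, whereas the a-factor genes, whose reads were in part divided, were low, MFA1 at 0.76 to 1.73 CPM and MFA2 at 7.38 to 16.99 CPM. The α-type genes MF(ALPHA)1, MF(ALPHA)2 and STE3 stayed under 8 CPM, and the α-type gene SAG1 was found at 25.9 to 34.6 CPM. Wild-type libraries were less alike, with correlations down to 0.983 among the fermentative ones.

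The shift moved most of the transcriptome. Of 5793 genes tested in mrn1Δ with edgeR's quasi-likelihood test, 2503 rose and 2333 fell at a Benjamini-Hochberg adjusted p under 0.05, which is 43.2% and 40.3% of the genes tested. Such calls include small changes, because replicates were very similar. Tested against a minimum change of 2-fold, 774 genes (13.4%) rose and 843 (14.6%) fell; these stricter calls are the ones described as beyond 2-fold below. Scaling by library totals alone, in place of trimmed mean (TMM) factors, shifted the median of all genes up by 0.169 on the log2 scale and gave 2910 higher and 1976 lower genes, or 955 and 688 beyond 2-fold, so 58.1% of the latter were higher and not 47.9%. Directions are therefore given relative to the TMM scale. The 3 fermentative and 3 respiratory values did not overlap for 4914 genes (84.8%). Rises reached further than falls: 130 called genes rose by more than 3 on the log2 scale and 48 fell by as much, and 28 rose and 2 fell by more than 5. The counts beyond 5 take in YHL009W-A among the rises and YRF1-6 among the falls, 2 sequences with divided reads that are called uncertain below.

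Several of the genes with the largest changes are shown library by library, and the groups stand apart in all of them. RGI2, a gene induced during respiratory growth, was read at 2.64, 1.54 and 1.76 CPM in the fermentative libraries and 378, 327 and 382 CPM in the respiratory ones, a log2 fold change of 7.48 ± 0.14 (SE, n = 3 libraries per group) or 178-fold. At the other end STR3, which encodes the cystathionine beta-lyase of methionine synthesis, was at 299, 393 and 424 CPM and then 5.59, 7.15 and 7.24 CPM, a log2 fold change of −5.81 ± 0.16 or 56-fold lower. Neither gene was marked for divided reads, and their 3 libraries in each condition lie close together beside the distance between conditions. The remaining leading rises were POX1, JEN1, HXT7, POT1, FOX2, ADY2, HXT6 and YNL194C, which are described with their pathways except for YNL194C, a membrane protein of the Sur7 family (6.20, 6.46 and 7.05 CPM against 419, 412 and 374 CPM). The remaining leading falls were RNA polymerase and ribosome assembly genes. A pair of coding sequences that met the same rule is uncertain: YHL009W-A, of a Ty transposon, was at 0 in every fermentative mrn1Δ library and at 3.02, 3.23 and 1.20 CPM in the respiratory ones, and YRF1-6, a subtelomeric helicase gene, went from 1.47, 9.44 and 5.18 to 0.0989, 0.0761 and 0 CPM. Their reads are divided by kallisto among near-identical copies, and no fold is given for them.

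**Figure D1:**
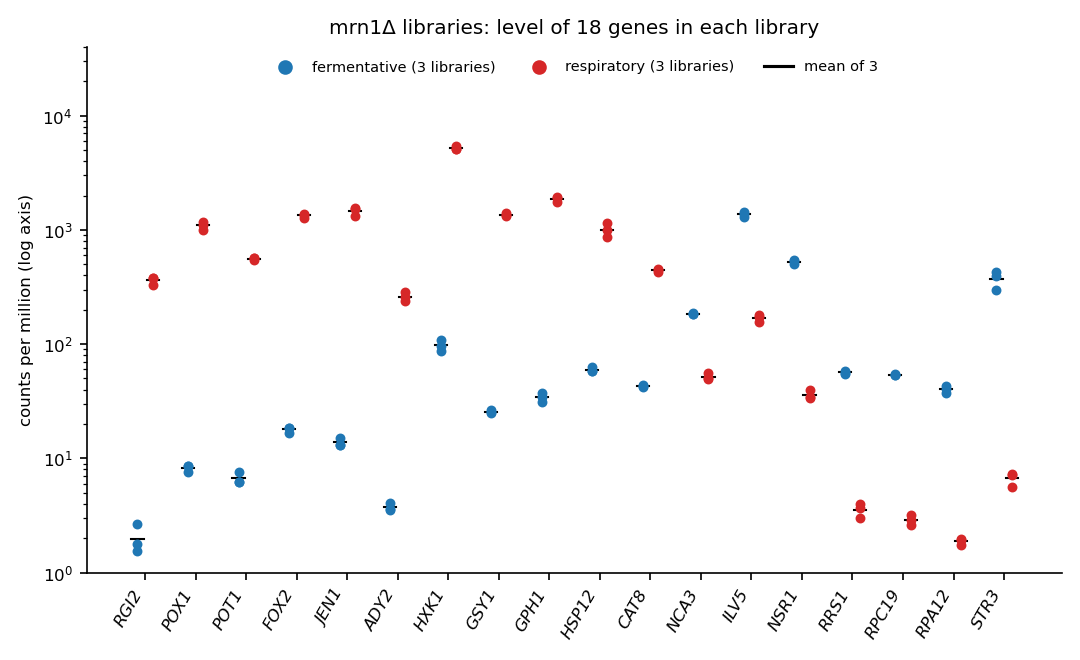
CPM (log axis) of 18 genes in each of the 6 mrn1Δ libraries, blue for fermentative and red for respiratory, with a bar at the mean of 3. The 2 conditions do not overlap for any gene shown, from RGI2 and POX1, which rose from under 10 CPM, to RPA12 and STR3, which fell to under 10 CPM.

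Transcripts for the transcription factors and kinases of glucose signalling were mostly higher. Of 30 regulators of glucose repression and derepression tested, 23 rose and 6 fell, 13 and 2 of them beyond 2-fold, with a median log2 change of 0.61 against 0.05 for all genes. USV1, a zinc finger factor of nonfermentable growth, rose by 4.91 ± 0.07 (6.15, 7.04 and 7.21 CPM against 210.5, 208 and 199.9 CPM). CAT8, the activator of gluconeogenic genes, was at 41.9, 43.8 and 42.8 CPM in fermentative and 449, 456 and 426 CPM in respiratory libraries, about a 10.3-fold rise. HAP4, the activating subunit of the Hap2/3/4/5 complex that drives respiratory genes, went from 40.5, 40.8 and 41.8 to 225, 211 and 225 CPM. Its DNA-binding partners moved unequally, since HAP2 (1.45 ± 0.07) and HAP5 (1.32 ± 0.10) rose and HAP3 (−0.44 ± 0.13) fell, although not by the test with library totals alone. ADR1, the activator of ethanol and fatty acid genes, rose by 1.52 ± 0.06. Repressors rose as well: MIG1 changed by 1.79 ± 0.06 and MTH1, the corepressor at hexose transporter promoters, by 3.15 ± 0.15. STD1, the paralogue of MTH1, went the other way, from 63.4, 65.2 and 62.5 CPM to 23.1, 21.6 and 20.8 CPM, and NRG2, a repressor that acts beside Snf1, fell by 1.52 ± 0.11. The kinase gene SNF1 itself rose by 0.79 ± 0.05, whereas SIP4, a Snf1-dependent activator, changed by −0.19 ± 0.11 and was not called (adjusted p = 0.15, edgeR).

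Among 16 genes of the protein kinase A and stress factor branch, 10 rose and 4 fell, against 43.2% and 40.3% of all genes. Beyond 2-fold these were 9 and 2, against 13.4% and 14.6%. Catalytic subunits of the kinase did not all move together. TPK2 rose from 36.97, 44.1 and 45.3 to 206, 236 and 219 CPM, and TPK3 fell from 37.6, 33.2 and 33.1 to 8.61, 8.18 and 9.08 CPM. The 2 Ras genes also split, with RAS2 at 1.19 ± 0.06 and RAS1 at −1.40 ± 0.06. The stress factor pair split too: MSN4 rose by 2.38 ± 0.05 and MSN2, which is present without stress, fell by 0.34 ± 0.06. XBP1, a stress-induced repressor of cyclin genes, rose by 3.49 ± 0.07, and GIS1, an activator of post-diauxic genes, by 2.84 ± 0.07. YAK1, a kinase that opposes protein kinase A, went from 68.6, 82.2 and 87.5 to 481, 481 and 483 CPM.

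Genes for nonfermentable carbon sources rose strongly, those for lactate and acetate, which were not supplied, as well as those for ethanol and glycerol. Of 18 genes for lactate, acetate, ethanol and glycerol use, 12 rose and 4 fell, 11 and 2 beyond 2-fold, with a median log2 change of 2.02. JEN1, the lactate and pyruvate permease, lies on chromosome XI at bases 22234 to 24084 (R64). It was read at 13.1, 13.01 and 15.2 CPM in fermentative libraries and 1518, 1554 and 1337 CPM in respiratory ones, a log2 fold change of 6.73 ± 0.10 (adjusted p = 1.18e-11, edgeR). ADY2, the acetate permease, rose from 3.51, 3.61 and 4.06 to 261, 284 and 239 CPM. No library of one condition came near the other for either permease. ACS1, the acetyl-CoA synthetase that is made without glucose, went from 13.04, 11.03 and 12.1 to 436, 469 and 386 CPM, and its glucose-growth counterpart ACS2 fell by 0.47 ± 0.06. The same exchange was seen between aldehyde dehydrogenases: ALD4, the main mitochondrial enzyme, rose from 157, 174 and 204 to 4320.5, 4676 and 4319 CPM, and ALD5, the minor one, fell from 183, 204 and 213 to 43.3, 54.3 and 57.9 CPM. ADH2, which oxidises ethanol, rose by 3.86 ± 0.07 and some of its reads were divided with similar genes. For glycerol, the kinase GUT1 (2.56 ± 0.05), the mitochondrial dehydrogenase GUT2 (3.40 ± 0.07) and the proton symporter STL1 (3.48 ± 0.09) all rose. CYB2, the lactate dehydrogenase that feeds cytochrome c, rose from 10.4, 10.3 and 11.1 to 157, 157 and 150.4 CPM. As a group these 18 genes held 0.233 to 0.242% of all TPM (counts divided by length and scaled to a fixed total) in fermentative libraries and 1.23 to 1.37% in respiratory ones.

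Hexose transporters rose although the new medium had no glucose. Of 17 transporters and sensors tested, 13 rose, 9 of them beyond 2-fold, and 1 fell. Reads were in part divided for 12 of the list's 18 members, HXT4 among them, so their single values are estimates. HXT7, a high-affinity transporter, was at 112, 110.3 and 105.3 CPM before and 9947, 10658 and 8904 CPM after the shift, and its near-identical neighbour HXT6 at 26.4, 24.00 and 32.8 and 1918, 1983 and 1599 CPM; the division of reads between this pair is an estimate. The high-affinity HXT2 rose by 3.06 ± 0.10 and HXT4 by 3.83 ± 0.09, and HXT5, which is made when growth slows, by 3.82 ± 0.09. HXT1, the low-affinity transporter of high glucose, was the single member that fell, by 0.57 ± 0.07 on the log2 scale. HXT3, also of low affinity, was at 1135, 1010.0 and 950.5 CPM and 1170.1, 1104 and 968 CPM, with overlapping groups. The sensor of low glucose SNF3 rose by 2.26 ± 0.07 and the sensor of high glucose RGT2 by 0.24 ± 0.06. The share of TPM held by the list went from between 0.124 and 0.144% to between 1.20 and 1.47%.

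All 4 hexose kinases rose. HXK1 was read at 87.3, 96.3 and 109 CPM and then 5133, 5439 and 5091 CPM, a log2 fold change of 5.73 ± 0.09. GLK1 (3.98 ± 0.10) and its paralogue EMI2 (3.58 ± 0.11) also rose beyond 2-fold, while HXK2, the glucose-growth enzyme, rose by 0.56 ± 0.05. In fermentative libraries HXK2 stood far above HXK1, and in respiratory libraries HXK1 stood above HXK2 (2741, 2952 and 2734 CPM); both coding sequences are of nearly the same length.

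Glycolysis changed less than the enzymes that feed it. Of 18 genes for glycolysis and ethanol formation, 5 rose and 11 fell, with 3 rises and no fall beyond 2-fold; with library totals alone the counts were 6 and 7. The falls were small and in abundant genes, such as PGI1 (−0.78 ± 0.05), PDC1 (−0.67 ± 0.04) and ENO2 (−0.55 ± 0.05). The rises beyond 2-fold were all in alternative copies of an enzyme: PYK2 (3.55 ± 0.07), ENO1 (3.34 ± 0.07) and TDH1 (3.14 ± 0.09). ENO1 went from 479, 474 and 541 to 4878, 5307 and 5102 CPM, while ENO2 went from 19081, 18692 and 20661 to 12719.7, 13614 and 13818 CPM. Reads were in part divided for 4 of the 18 members, so values of similar copies may be estimates. The list held 10.6 to 11.1% of TPM before and 11.8 to 12.5% after the shift, so its share of all transcripts per length was higher although most members fell on the TMM scale. Of 12 genes of gluconeogenesis and the glyoxylate cycle, 9 rose and none fell, 5 beyond 2-fold. PCK1, the first enzyme of gluconeogenesis, was at 9.62, 9.30 and 12.4 CPM and 21.4, 21.4 and 26.7 CPM, and FBP1, its last committed step, at 5.20, 8.10 and 7.05 and 17.7, 21.4 and 18.1 CPM. ICL1, the isocitrate lyase of the glyoxylate cycle, went from 28.6, 32.5 and 33.8 to 108, 119 and 136 CPM, and MDH2, the cytosolic malate dehydrogenase, from 59.9, 58.1 and 54.1 to 288, 274 and 271 CPM. SFC1, the succinate-fumarate carrier, was not called (0.30 ± 0.19, adjusted p = 0.18, edgeR).

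**Figure D2:**
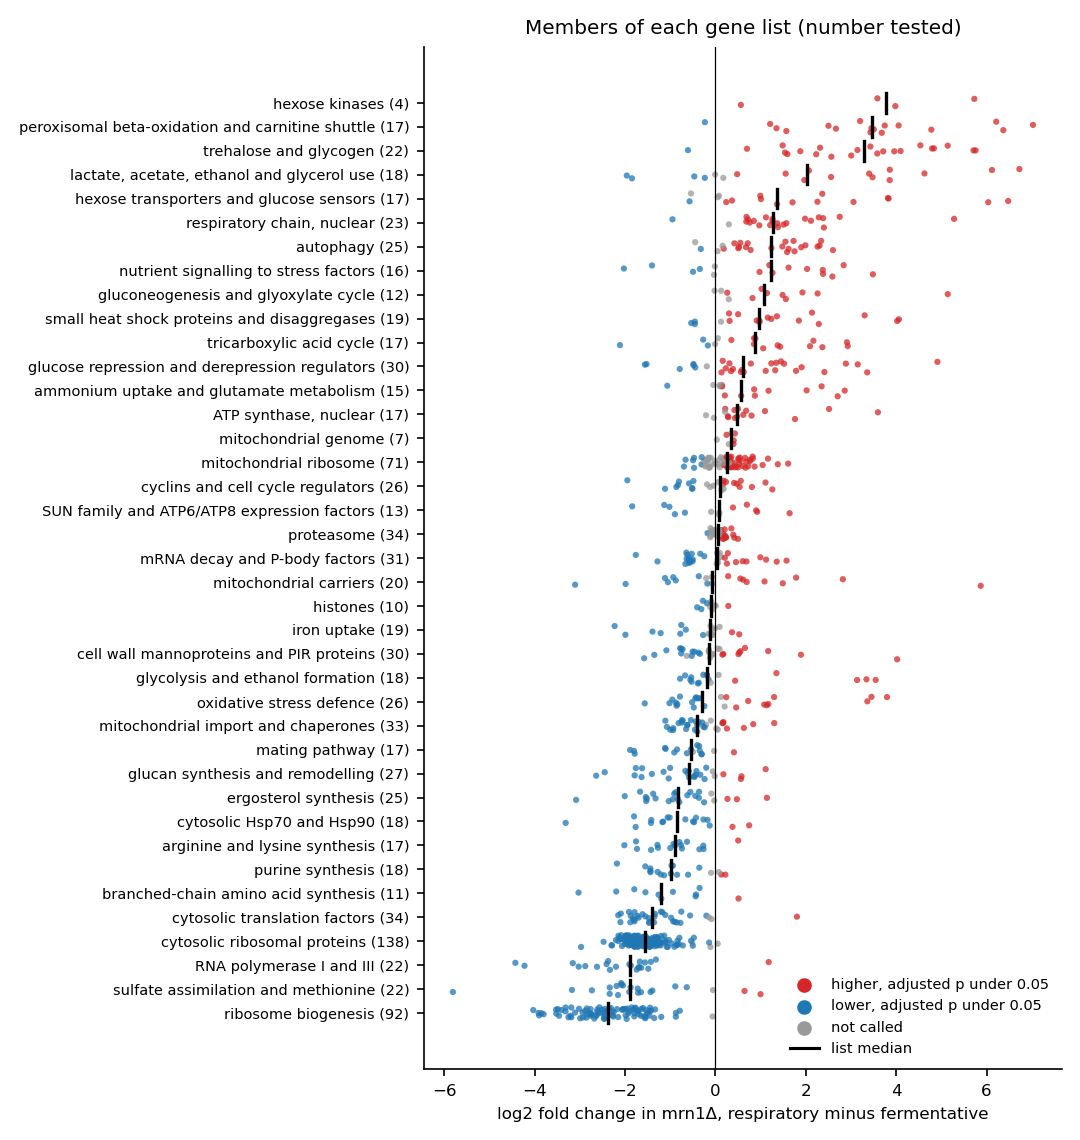
Log2 fold change of respiratory against fermentative mrn1Δ libraries (x axis) for the tested members of each gene list (rows), one point per gene, red where called higher, blue where called lower and grey where not called, with a bar at the list's median and a line at no change. Beta-oxidation, hexose kinases and storage carbohydrates lie furthest to the right, with medians of 3.45, 3.78 and 3.29, and ribosome biogenesis furthest to the left, at −2.38.

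Fatty acid oxidation, which in yeast takes place in peroxisomes, rose as a near-complete pathway even though no fatty acid was added. Of 17 genes tested, 16 rose, all 16 beyond 2-fold, and 1 fell; the median log2 change was 3.45. POX1, the acyl-CoA oxidase of the first step, lies on chromosome VII at bases 108158 to 110404. It was at 8.62, 8.58 and 7.64 CPM in fermentative and 1175, 1099.7 and 1006 CPM in respiratory libraries, a log2 fold change of 7.03 ± 0.10 or 130-fold (adjusted p = 1.03e-11, edgeR). FOX2, the bifunctional enzyme of the middle steps, went from 18.3, 16.8 and 18.5 to 1387, 1362 and 1270.0 CPM. POT1, the thiolase of the last step, went from 6.24, 7.66 and 6.15 to 563, 567 and 547 CPM. All 3 were among the leading rises of the whole transcriptome, and their conditions lie far apart in every library. Activation and entry rose with them, through FAA2 (4.78 ± 0.08), an acyl-CoA synthetase, and the transporter subunits PXA1 (3.43 ± 0.10) and PXA2 (3.75 ± 0.07). So did the carnitine shuttle, with CAT2 at 3.68 ± 0.07 and CRC1 at 3.51 ± 0.18, and the peroxisomal catalase CTA1, at 3.45 ± 0.09. ANT1, the peroxisomal adenine nucleotide carrier, was the member that fell, by 0.23 ± 0.06, and was not called with library totals alone. The list's share of TPM was 0.024% in the fermentative libraries and 0.359 to 0.393% in the respiratory ones. These genes are known for the oleate response element, bound by Oaf1 and Pip2, and 12 of the 17 (70.6%) had a match to it in the 300 bases before the start codon, against 1.04% of 5769 promoters. The windows around the matches of the 3 enzymes of the spiral are shown because these genes had the largest rises of the pathway; capitals mark the element, letters run 5′ to 3′ on the gene's strand, and the sequence is from RefSeq, build R64.
POX1 (chrVII:107863-107925, + strand): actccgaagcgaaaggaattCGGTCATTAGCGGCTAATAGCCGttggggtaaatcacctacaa
FOX2 (chrXI:457285-457345, − strand): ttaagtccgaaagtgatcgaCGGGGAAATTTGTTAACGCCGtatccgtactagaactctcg
POT1 (chrIX:41590-41652, − strand): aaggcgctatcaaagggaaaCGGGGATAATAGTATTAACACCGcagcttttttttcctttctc
Of all 60 promoters with a match, 19 (31.7%) belonged to genes beyond 2-fold higher, against 13.2% of promoters without one. The 60 include the 12 of this list, in which 16 of 17 genes rose beyond 2-fold. Most of the 19 are thus genes of this list, and the share is not separate from it. The other promoters with a match were not counted apart. A match is a description of the letters and was not tested for binding.

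Inside the mitochondrion, dehydrogenases and electron transport rose more than the ATP synthase. Of 17 genes of the tricarboxylic acid cycle, 12 rose and 3 fell (1 with library totals alone), 7 and 1 beyond 2-fold. SDH1, the flavoprotein subunit of succinate dehydrogenase, went from 58.1, 63.5 and 69.6 to 450.2, 514 and 504 CPM, and the other subunits SDH2 (2.17 ± 0.07), SDH3 (1.38 ± 0.05) and SDH4 (2.09 ± 0.07) rose with it. CIT1, the citrate synthase, rose from 142, 149.5 and 149 to 758, 782 and 751 CPM. IDH2, of the isocitrate dehydrogenase in the middle of the cycle, was at 181, 193 and 202 CPM and 192, 208 and 203 CPM and was not called (0.06 ± 0.06, adjusted p = 0.38, edgeR).

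Among 23 nuclear genes of the respiratory chain, 21 rose and 1 fell, 14 of the rises beyond 2-fold. The entry points rose: the internal NADH dehydrogenase NDI1 by 2.75 ± 0.09 and the external NDE2 by 2.38 ± 0.08. The Rieske protein gene RIP1 went from 27.04, 27.03 and 34.1 to 124, 133 and 127 CPM and cytochrome c1, CYT1, from 41.9, 38.3 and 38.8 to 181, 206 and 199.7 CPM. The paired isoforms were unequal. CYC7, the minor cytochrome c isoform, rose from 1.04, 0.723 and 0.748 to 33.7, 31.4 and 35.4 CPM, and CYC1, the major isoform of aerobic cells, was the one member that fell, by 0.95 ± 0.14; kallisto divided some reads of this pair. Cytochrome oxidase subunit COX5B rose by 2.40 ± 0.07 and its aerobic counterpart COX5A by 0.68 ± 0.08. The chain's share of TPM was 0.17 to 0.19% in fermentative and 0.547 to 0.583% in respiratory libraries.

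For the ATP synthase, 14 of 17 nuclear genes rose and none fell, but 3 did so beyond 2-fold and the median was 0.48. Those 3 were STF2 (3.60 ± 0.16), STF1 (2.52 ± 0.10) and INH1 (1.76 ± 0.09), which encode inhibitor proteins of the enzyme or their helpers and not catalytic subunits. The catalytic subunits ATP1 (0.42 ± 0.07) and ATP2 (0.48 ± 0.06) rose by less. Of 7 genes read from the mitochondrial genome, 4 rose, none beyond 2-fold, where 43.2% of all genes rose. COX1 was at 424, 475 and 371 CPM and 587, 629.9 and 512 CPM, and ATP6, which was not called, at 59.3, 54.9 and 36.5 and 74.7, 69.1 and 51.1 CPM (adjusted p = 0.19, edgeR). Replicate 3 was the lowest of its group for COX1, COB, COX2 and ATP6 in both conditions. When respiratory replicate 1 or 2 was left out 2 of the 7 were called, and with replicate number as a block 6 were, ATP6 among them.

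Genes that build mitochondria did not rise as one group. Of 71 genes of the mitochondrial ribosome, 40 rose and 8 fell, against 43.2% and 40.3% of all genes. Beyond 2-fold there were 3 rises, and the median was 0.26. The largest rise was MRP8 (1.61 ± 0.07), a gene the list takes in by name and whose product is not an established subunit. Of 33 import and chaperone genes, 7 rose (4 with DESeq2) and 21 fell, among them TIM10 (−1.11 ± 0.10), an intermembrane chaperone, PAM18 (−1.07 ± 0.07), of the import motor, and SSC1 (−0.74 ± 0.05), the matrix Hsp70. MIA40, which oxidises imported proteins, went against the list and rose by 0.84 ± 0.06. Carriers were mixed, with 9 of 20 higher and 8 lower, near the 43.2% and 40.3% of all genes. Their median of −0.08 became 0.09 with library totals alone. MPC3, the pyruvate carrier subunit of respiratory cells, went from 4.59, 6.75 and 6.52 to 364, 328 and 356 CPM, and its partner MPC1 rose by 1.49 ± 0.06. PIC2, a phosphate carrier, rose by 2.82 ± 0.06. YMC2, of the mitochondrial carrier family, fell from 40.6, 35.3 and 38.00 to 4.15, 4.49 and 4.70 CPM, and OAC1, the oxaloacetate carrier, from 17.2, 17.3 and 17.3 to 8.85, 8.44 and 7.88 CPM.

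NCA3 and its relatives of the SUN family, cell wall proteins with ties to mitochondria, fell together. NCA3, named for its part in expression of the mitochondrial ATP6 and ATP8 genes, was at 187, 183 and 182 CPM in fermentative and 56.04, 49.6 and 50.2 CPM in respiratory libraries, a log2 fold change of −1.84 ± 0.06 that passed the test beyond 2-fold. The other members, SIM1 (−1.13 ± 0.08), SUN4 (−1.02 ± 0.06) and UTH1 (−0.90 ± 0.06), fell by less. NCA2, which acts with NCA3, rose from 33.3, 33.3 and 34.1 to 111, 109 and 97.6 CPM. ATP22, a translational activator of ATP6, rose by 0.93 ± 0.06, and AEP3, which stabilises the ATP6 and ATP8 mRNA, changed by 0.09 ± 0.06 and was not called (adjusted p = 0.22, edgeR).

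Genes for carbohydrate stores rose almost throughout. Of 22 trehalose and glycogen genes, 21 rose, 20 of them beyond 2-fold, and 1 fell. Both synthesis and breakdown were included. GPH1, the glycogen phosphorylase, was read at 31.2, 34.4 and 37.03 CPM and then 1941, 1891 and 1761 CPM, a log2 fold change of 5.76 ± 0.08. GSY1, a glycogen synthase, went from 25.4, 25.1 and 26.4 to 1399, 1345 and 1319 CPM, and GSY2, the main synthase, from 48.7, 57.1 and 66.9 to 1355, 1356 and 1320.4 CPM. GLC3, the branching enzyme, rose by 4.79 ± 0.07 and GDB1, the debranching enzyme, by 3.71 ± 0.07. PGM2, the phosphoglucomutase that links these stores to glycolysis, rose by 5.14 ± 0.10, and PGM1, its minor copy, was the member that fell, by 0.61 ± 0.05. On the trehalose side, the synthase TPS1 rose by 2.32 ± 0.07, the phosphatase TPS2 by 3.58 ± 0.11, the trehalase NTH1 by 1.54 ± 0.08 and the trehalase ATH1 by 3.01 ± 0.06. Their share of TPM was 0.101 to 0.12% before and 1.21 to 1.28% after the shift.

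Stress proteins rose in part. Of 19 small heat shock proteins, disaggregases and related proteins, 15 rose and 3 fell, 7 of the rises beyond 2-fold. HSP12, a membrane-associated stress protein, went from 58.4, 57.6 and 63.4 to 992, 875 and 1154 CPM, and SPI1, a cell wall protein of stationary phase, from 17.1, 21.2 and 25.2 to 379, 318 and 340.3 CPM. HSP26 rose by 2.29 ± 0.10 and HSP104, the disaggregase, by 0.98 ± 0.08. HSP30, an inhibitor of the plasma membrane proton pump, fell by 0.45 ± 0.07. Housekeeping chaperones went the other way, with 16 of 18 Hsp70 and Hsp90 system genes lower, 7 beyond 2-fold, and 2 higher. CNS1, an Hsp90 cochaperone, fell from 60.1, 61.8 and 62.2 to 6.03, 6.31 and 6.32 CPM, and the ribosome-bound Hsp70 genes SSB1 and SSB2 fell by 1.43 ± 0.05 and 1.42 ± 0.05. The 2 that rose were the heat-inducible SSA1 (0.75 ± 0.07) and HSP82 (0.38 ± 0.06), against falls of 1.16 ± 0.05 in SSA2 and 1.01 ± 0.05 in HSC82, their constitutive counterparts. Reads were in part divided for 5 of the 18 members, so values of similar copies may be estimates. Oxidative defence was split, with 10 of 26 genes higher and 14 lower, against 43.2% and 40.3% of all genes. The catalases CTT1 (3.80 ± 0.07) and CTA1 rose and the glutathione peroxidase GPX2 (−1.56 ± 0.07) fell. Autophagy genes rose, 21 of 25, with 13 beyond 2-fold and 1 lower. ATG8, the conjugated membrane protein, went from 3.51, 4.63 and 3.21 to 24.5, 22.7 and 22.5 CPM, whereas the kinase gene ATG1 fell by 0.32 ± 0.09, a call that was lost with library totals alone.

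The stress response element AGGGG, the site of Msn2 and Msn4, was searched on both strands of the 300 bases before each start codon. It was found in 22.2% of all promoters, in 48.5% of those of genes beyond 2-fold higher and in 12.1% of those of genes beyond 2-fold lower. Of promoters with a match, 29.3% belonged to genes beyond 2-fold higher, against 8.87% of those without. It was found in 63.2% of the small heat shock and stress genes and in 50% of the storage carbohydrate genes. Windows of HSP12 and TPS1 are shown because each holds more than one match; capitals mark AGGGG or its reverse complement.
HSP12 (chrVI:107004-107090, + strand): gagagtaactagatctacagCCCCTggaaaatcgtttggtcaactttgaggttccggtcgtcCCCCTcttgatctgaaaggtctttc
TPS1 (chrII:490607-490690, − strand): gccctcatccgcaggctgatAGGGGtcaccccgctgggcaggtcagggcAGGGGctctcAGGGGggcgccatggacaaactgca

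Protein synthesis was the largest group to fall. Of 138 cytosolic ribosomal protein genes, 135 fell, 117 beyond 2-fold, and none rose, with a median log2 change of −1.56. Together they held 31.3 to 32.4% of TPM in the fermentative libraries and 14.2 to 16.2% in the respiratory ones. Most are duplicated genes whose reads are divided between copies, so a single copy's value is an estimate. RPS12, from 1 gene, went from 2147, 1913 and 1986 to 1326, 1097 and 1281 CPM. The 3 that were not called were RPL3 (−0.11 ± 0.05), RPL41B (−0.51 ± 0.31) and RPL15B (0.05 ± 0.06), of which RPL3 has 1 copy and adjusted p = 0.054 (edgeR), or 0.024 with replicate number as a block. Translation factors followed, with 31 of 34 lower, 23 of them beyond 2-fold. SUI1, the start-codon factor eIF1, fell from 79.5, 85.6 and 74.9 to 19.04, 16.8 and 18.9 CPM, TIF4631, an eIF4G, by 2.10 ± 0.06 and NIP1, of eIF3, by 2.09 ± 0.05. HEF3, a copy of the elongation factor YEF3, was the member that rose, by 1.80 ± 0.07, and stayed under 40 CPM, while YEF3 fell from 12646, 12997 and 13413 to 3774, 3738 and 3845 CPM.

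The factors that assemble ribosomes fell furthest. Of 92 ribosome biogenesis genes, 91 fell, 88 beyond 2-fold, and none rose, with a median of −2.38. RRS1, which brings the 5S RNA into the large subunit, was read at 55.3, 56.4 and 58.5 CPM before and 3.96, 3.004 and 3.64 CPM after the shift, a log2 fold change of −4.03 ± 0.09 (adjusted p = 8.45e-11, edgeR). NSR1, the yeast nucleolin, went from 545, 508 and 530.2 to 34.1, 33.5 and 39.5 CPM, and NOP1, the methyltransferase of box C/D particles, from 484, 451 and 513 to 29.5, 33.7 and 33.7 CPM. TSR2 (−4.04 ± 0.12), ALB1 (−3.90 ± 0.10) and RPF2 (−3.85 ± 0.07) were close behind. The one gene that was not called was ESF1 (−0.06 ± 0.05), a small subunit processing factor, at 241, 231 and 238 CPM and 224, 240.0 and 223 CPM. As a group these genes held 1.05 to 1.06% of TPM in fermentative and 0.294 to 0.298% in respiratory libraries, with hardly any spread within a condition.

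RNA polymerases I and III fell with them. Of 22 genes, 21 fell, every one of them beyond 2-fold, and 1 rose. RPA12, a polymerase I subunit, was at 43.2, 37.2 and 40.5 CPM and then 1.98, 1.94 and 1.75 CPM, and RPC19, shared by both polymerases, at 54.00, 53.2 and 54.2 and 3.21, 2.89 and 2.63 CPM. The largest subunits fell by less: RPA190 fell by 2.41 ± 0.05 and RPO31 fell by 1.43 ± 0.05. The gene that rose was MAF1, the repressor of polymerase III, from 26.6, 29.4 and 27.8 to 64.6, 64.8 and 62.02 CPM.

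Ribosome biogenesis promoters are known for 2 short motifs, PAC, searched here as GATGAG, and RRPE, searched as AAAATTTT. PAC was found in 89.1% and RRPE in 83.7% of the 92 biogenesis promoters, and both in 75%, against 19.1%, 9.59% and 4.59% of all promoters. Both motifs occurred in 21.8% of promoters of genes beyond 2-fold lower and in 0.388% of those beyond 2-fold higher. Seen from the promoter, 265 tested genes had both motifs, their median log2 change was −1.67, and 69.4% were beyond 2-fold lower, against 11.97% of the other genes. The 265 include 69 of the ribosome biogenesis list and 13 of the RNA polymerase list, so this share is not separate from those lists. Ribosomal protein promoters lacked this pair, with PAC in 11.6% and RRPE in 6.52%. Translation factor promoters had RRPE in 67.6%. Windows are shown for RRS1 and NSR1, among the largest falls, for RRP12, which holds 2 matches of each motif, and for SUI1, a translation factor with RRPE alone; capitals mark the motifs or their reverse complements, and 2 PAC matches may overlap by 1 base.
RRS1 (chrXV:868184-868249, + strand): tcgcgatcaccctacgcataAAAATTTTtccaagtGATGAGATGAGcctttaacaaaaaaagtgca
NSR1 (chrVII:807801-807863, − strand): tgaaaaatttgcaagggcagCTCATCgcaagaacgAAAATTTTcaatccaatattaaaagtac
RRP12 (chrXVI:529488-529584, + strand): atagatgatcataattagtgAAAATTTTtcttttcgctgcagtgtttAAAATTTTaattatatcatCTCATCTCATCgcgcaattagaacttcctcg
SUI1 (chrXIV:187635-187682, − strand): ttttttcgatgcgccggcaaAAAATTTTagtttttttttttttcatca
In RRS1 the PAC matches ended 111 bases before the start codon and the RRPE match 129 bases before it.

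**Figure D3:**
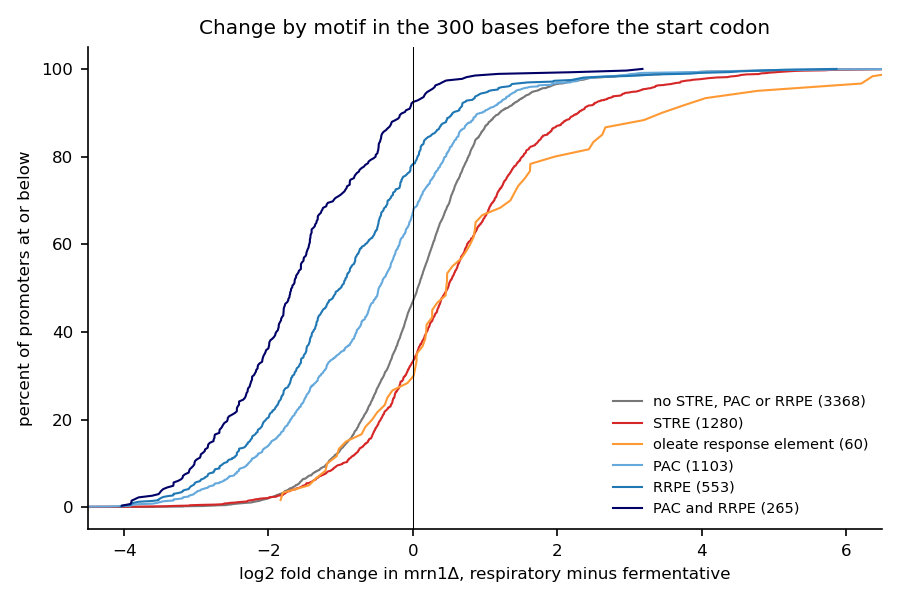
Percent of promoters (y axis) at or below each log2 fold change in mrn1Δ (x axis), one curve for each motif found in the 300 bases before the start codon, with the number of genes in the key and grey for genes with no STRE (AGGGG), PAC or RRPE. The curve of the 265 genes with PAC and RRPE lies to the left, with a median of −1.67, and those with AGGGG or the oleate element lie to the right of the grey curve over most of the range. The oleate element curve includes 12 genes of the beta-oxidation list, and the PAC and RRPE curve 69 of the ribosome biogenesis list.

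**Figure D4:**
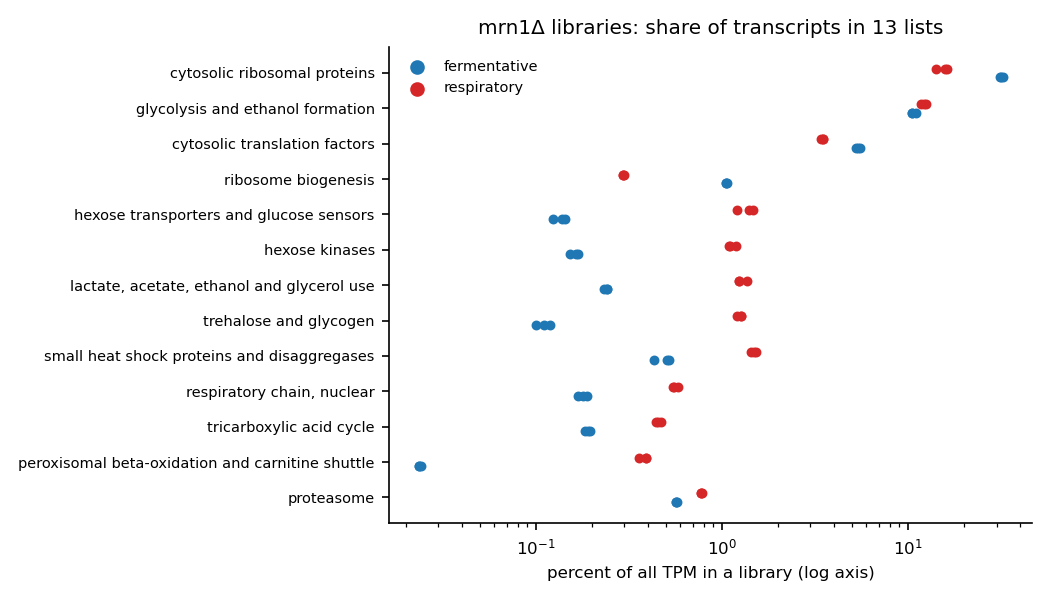
Percent of all TPM (log axis) held by gene lists in each of the 6 mrn1Δ libraries, blue for fermentative and red for respiratory. Ribosomal proteins dropped from 31.3 to 32.4% to 14.2 to 16.2%, and beta-oxidation rose from 0.024% to between 0.359 and 0.393%.

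Biosynthesis fell with protein synthesis. Of 22 genes of sulfate assimilation and methionine, 19 fell, 17 beyond 2-fold, and 2 rose. After STR3 came MET14, the adenylylsulfate kinase, which fell from 139.9, 159 and 167 to 15.6, 18.4 and 17.9 CPM, and MET6, the methionine synthase, which fell by 2.34 ± 0.07. Of 11 branched-chain amino acid genes 10 fell, 6 beyond 2-fold. ILV5, the acetohydroxyacid reductoisomerase, fell from 1433, 1309.9 and 1367 to 157, 173 and 179 CPM, and the transaminases split, with mitochondrial BAT1 at −1.55 ± 0.07 and cytosolic BAT2 at 0.51 ± 0.06. Of 17 arginine and lysine genes 16 fell, led by LYS20 (−2.01 ± 0.08), a homocitrate synthase. Of 18 purine genes 14 fell, led by ADE4 (−2.18 ± 0.06), the first enzyme of the pathway. Of 25 ergosterol genes 20 fell, 8 beyond 2-fold, and 3 rose. CYB5, the cytochrome that serves sterol desaturation, fell from 16.5, 16.1 and 17.9 to 2.28, 1.67 and 2.12 CPM, and ERG28, a scaffold of the complex, rose by 1.14 ± 0.11. Ammonium and glutamate genes differed from the rest, with 10 of 15 higher, 5 beyond 2-fold, and 1 lower. PUT1, which starts proline breakdown, went from 29.7, 28.5 and 32.2 to 203, 247 and 211 CPM, GDH2, the catabolic glutamate dehydrogenase, from 99.8, 104.6 and 103 to 664, 674 and 688 CPM, and GLT1, the glutamate synthase, fell by 1.06 ± 0.06.

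Cell wall genes fell where they act on glucan and were mixed elsewhere. Of 27 glucan genes 21 fell, 8 beyond 2-fold, and 4 rose. EXG1, an exoglucanase, went from 464, 443 and 401 to 64.7, 70.8 and 76.8 CPM, GAS1, the main glucan transferase, from 2304, 2259 and 1949.9 to 708, 727 and 703 CPM, and FKS1, the glucan synthase, fell by 1.40 ± 0.09. SKN1, a relative of KRE6 in beta-1,6-glucan synthesis, rose by 1.11 ± 0.07. Of 30 mannoprotein and PIR genes 9 rose (5 in the fit of 12 libraries) and 12 fell, against 43.2% and 40.3% of all genes. Their median of −0.14 became 0.03 with library totals alone. ECM33, a GPI protein, fell by 1.58 ± 0.08, CWP1, a mannoprotein, rose by 1.89 ± 0.07, and PIR1 was not called (−0.07 ± 0.07). In iron uptake 8 of 19 fell, a share near the 40.3% of all genes, and 2 rose. The median of that list changed sign with library totals, from −0.11 to 0.06. FRE1, the cell surface reductase, fell from 636, 661 and 522 to 166, 114 and 112 CPM, and FET3 and FTR1, the oxidase and permease, fell by 1.21 ± 0.08 and 1.99 ± 0.08. Of 17 mating pathway genes 14 fell, 3 beyond 2-fold, and 1 rose, led by FUS1 (−1.89 ± 0.08), a cell fusion protein, and STE12 (−1.78 ± 0.06), the pathway's transcription factor.

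Several groups stayed near the middle of the distribution, in which 43.2% of all genes rose and 40.3% fell. Of 26 cyclins and cell cycle regulators 10 rose and 9 fell. WHI5 and SIC1, inhibitors of the start of the cycle and of S phase, rose by 1.26 ± 0.12 and 1.11 ± 0.05, and RNR1, the ribonucleotide reductase gene of S phase, fell by 1.95 ± 0.05. Of 31 mRNA decay and P-body genes 10 rose and 15 fell, with a median of 0.03 that became −0.01 with DESeq2's size factors. NGR1 (1.58 ± 0.06) and NAB6 (1.36 ± 0.06), RNA-binding proteins, rose, PUF3, which binds mRNAs for mitochondrial proteins, rose by 0.46 ± 0.06, and SCP160 (−1.76 ± 0.05) fell. Of 10 histone genes 1 rose and 4 fell, or 2 and 1 with library totals alone. Of 34 proteasome genes 13 rose and 1 fell, none beyond 2-fold, or 26 and 0 with library totals alone, and 4 fell with replicate number as a block. RPN11, the deubiquitinating subunit, rose most, by 0.50 ± 0.06. Proteasome promoters are known for the PACE element, the site of Rpn4, and GGTGGCAAA was found in 27 of 34 (79.4%) against 1.25% of all promoters; RPN11's is shown in capitals.
RPN11 (chrVI:153249-153297, + strand): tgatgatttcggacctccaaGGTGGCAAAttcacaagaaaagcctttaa

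The most abundant transcripts were largely the same before and after. By TPM, which accounts for length, 8 genes were among the top 10 in both conditions: TDH3, ENO2, TEF2, PDC1, FBA1, CCW12, ADH1 and CDC19. The top 10 held 12.6% of TPM in fermentative and 13.0% in respiratory libraries. TEF1, an elongation factor 1α gene, and RPS31, a ribosomal protein fused to ubiquitin and with divided reads, left the top 10. GPM1, the phosphoglycerate mutase, and YDR034C-A, a Ty-associated sequence with divided reads, entered it. Whether reads were split between TEF1 and TEF2 was not tested. TDH3, the main glyceraldehyde-3-phosphate dehydrogenase, stood at 25598 in fermentative and 28659 in respiratory libraries TPM, and its TPM was higher while its TMM-scaled log2 change was −0.19 ± 0.04, which was not called with library totals alone. Among the 100 genes with the highest mean TPM, the smallest TMM-scaled changes were those of YDR034C-A, CCW12 (0.05 ± 0.07), a cell wall mannoprotein, ADH1 (0.07 ± 0.05), the fermentative alcohol dehydrogenase, YNL143C and YER138W-A, and none of the 5 was called. Of 9 genes used as references in RT-qPCR, 7 fell and 1 rose, or 4 and 1 with library totals alone. UBC6 changed by −0.31 ± 0.05, ACT1 by −0.30 ± 0.06 and TFC1 by 0.70 ± 0.05.

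The same shift in the wild-type was read from its own 6 libraries. There 2238 of 5801 genes rose (38.6%) and 2112 fell (36.4%), and 627 (10.8%) and 637 (11%) did so beyond 2-fold. Of the genes beyond 2-fold higher, 605 were shared by the genotypes, which is 78.2% of those in mrn1Δ and 96.5% of those in the wild-type. For genes beyond 2-fold lower the number was 613, or 72.7% and 96.2%. No gene was beyond 2-fold in opposite directions. The wild-type libraries scattered more, and the part of that in the smaller counts was not tested. The genes beyond 2-fold in the wild-type had a median log2 change of 1.80 there and 1.94 in mrn1Δ when higher, and of −1.60 and −1.82 when lower.

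The difference of the shift between genotypes was put to an interaction test in a fit of all 12 libraries. The shift was more positive in mrn1Δ for 65 of 5828 genes (1.12%) and more negative for 123 (2.11%), and no gene's difference passed the test beyond 2-fold. For 173 of these 188 genes the change had the same sign in both genotypes and was larger in mrn1Δ. It was smaller in mrn1Δ for 7, among them HXT4, and had opposite signs for 8, among them HPF1 and LEU1. With library totals alone the balance of the test turned, to 100 more positive and 60 more negative genes. The main counts of 65 and 123 also depended on single libraries: leaving out 1 of the 12 gave 26 to 155 more positive and 50 to 346 more negative genes, the highest both without wild-type fermentative replicate 2. With replicate number as a block they were 99 and 162. Beyond 2-fold, 1 gene's difference passed with DESeq2 and 1 with the block. The same count of 1 came when wild-type fermentative replicate 2, respiratory replicate 1 or respiratory replicate 2 was left out.

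STL1, the glycerol-proton symporter, had the largest difference among genes with a mean of at least 1 CPM. Its mrn1Δ libraries held 8.49, 10.2 and 9.35 CPM in glucose and 95.1, 106 and 113 CPM in ethanol and glycerol, and the wild-type held 9.69, 9.48 and 12.5 and 18.98, 32.1 and 27.2 CPM. Fermentative levels overlapped between the genotypes, while every respiratory mrn1Δ library was above every respiratory wild-type one. The log2 change was 3.48 ± 0.09 in mrn1Δ and 1.30 in the wild-type, a difference of 2.19 ± 0.24 (adjusted p = 0.0012, edgeR). JEN1 (1.31 ± 0.17), CYB2 (1.04 ± 0.13), FMP16 (1.51 ± 0.22), a mitochondrial protein of unknown function, ALD3 (1.32 ± 0.19), a cytosolic aldehyde dehydrogenase, and CYC7 (1.18 ± 0.26) followed, each with a larger rise in mrn1Δ. ALD3 and CYC7 have divided reads. UIP4, the coding sequence next to the deleted one on chromosome XVI, was at 2.64, 3.47 and 2.94 and then 63.3, 57.1 and 66.4 CPM in mrn1Δ and at 4.64, 4.06 and 4.79 and then 47.2, 38.2 and 39.96 CPM in the wild-type, a difference of 1.16 ± 0.17. RTC6, the neighbour on the other side, was not called in mrn1Δ (−0.15 ± 0.10). Whether the cassette touches either neighbour was not tested. In the beta-oxidation list 5 of 17 genes had a more positive shift in mrn1Δ, against 1.12% of all genes: POX1, POT1, FOX2, PXA2 and ECI1, with differences of 0.65 to 0.90. That count ran from 4 to 9 with 1 library left out, the highest without wild-type fermentative replicate 1, was 8 without wild-type respiratory replicate 2, and was 8 with replicate number as a block.

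On the negative side MAE1, the mitochondrial malic enzyme, fell from 171, 171 and 181 to 36.7, 37.6 and 38.3 CPM in mrn1Δ and from 199.7, 246 and 203 to 106, 93.9 and 95.4 CPM in the wild-type, a difference of −1.06 ± 0.11. OAC1 stood lower in mrn1Δ in every library, at the levels given above against 68.9, 68.1 and 64.4 CPM in fermentative and 61.1, 62.5 and 67.8 CPM in respiratory wild-type libraries. It fell in mrn1Δ alone by the test (log2 change −0.08 in the wild-type), and the difference was −0.95 ± 0.10. NCA3 was at 49.4, 55.6 and 51.1 CPM in fermentative and 26.2, 25.8 and 22.9 CPM in respiratory wild-type libraries, so that fermentative wild-type and respiratory mrn1Δ levels overlapped. It fell by 1.84 ± 0.06 in mrn1Δ and fell by 1.07 in the wild-type, a difference of −0.75 ± 0.10 (adjusted p = 0.0026, edgeR). HPF1, a cell wall mannoprotein with divided reads, was not called in mrn1Δ (−0.14 ± 0.07; adjusted p = 0.099, edgeR, or 0.016 with replicate number as a block) and changed by 0.97 in the wild-type. ALD5 (−0.88 ± 0.17) and HXT4 (−0.91 ± 0.19), which has divided reads, complete the leading differences. Over all genes 2.11% had a more negative shift in mrn1Δ. By list, ribosome biogenesis held 38 of 92 such genes, a count that ran from 16, without mrn1Δ respiratory replicate 2, to 56, without wild-type fermentative replicate 2, and was 20 with library totals alone. Glucan synthesis and remodelling held 5 of 27, or 1 to 12 with 1 library left out. There were 3 each among 22 sulfate and methionine, 25 ergosterol and 22 RNA polymerase genes. Branched-chain amino acid synthesis held 5 of 11: LEU9 (−0.78 ± 0.14), ILV2 (−0.68 ± 0.12), LEU1 (−0.66 ± 0.12), BAT1 (−0.65 ± 0.11) and ILV3 (−0.44 ± 0.11).

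**Figure D5:**
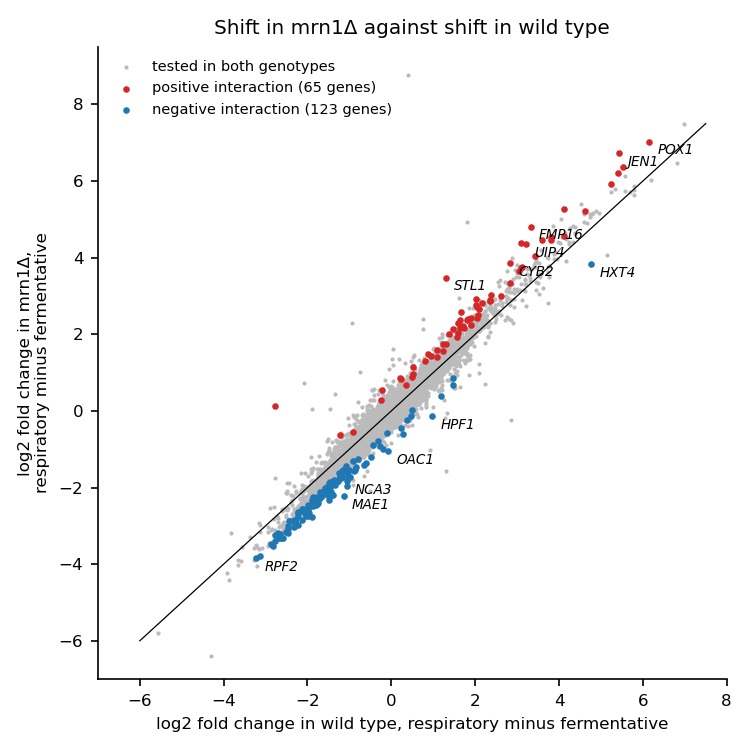
Log2 fold change of the shift in mrn1Δ (y axis) against the wild-type (x axis) for genes tested in both, with the genes called in the interaction test in red (positive) or blue (negative) and a line of equality. Most coloured genes lie further from 0 in mrn1Δ than the line, as STL1 does at 3.48 in mrn1Δ and 1.30 in the wild-type.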

How the data were processed

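RNA was prepared from BY4741 cells, depleted of rRNA, made into NEBNext Ultra II libraries and read single-end. Per the submitters' processing notes and file headers, the authors quantified coding sequences of build R64 with kallisto 0.44.0 and deposited estimated counts, in which reads that match several sequences are divided among them, and TPM; the strand setting is not given in the sources used here. Of 5917 sequences 5911 were paired with RefSeq names, and 623 held counts in some library that were not whole (tolerance 1e-06), which marks divided reads. The lack of this mark does not show that reads were unique, least of all for abundant sequences. TEF1, with 170048 counts or more in each mrn1Δ library, and TEF2 carried no mark.

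Estimated counts were rounded to whole numbers. Genes were filtered with filterByExpr, scaled by TMM and tested with edgeR 4.0.16 (robust quasi-likelihood fit, R 4.3.3), respiratory against fermentative, within mrn1Δ as the main comparison, at a Benjamini-Hochberg adjusted p under 0.05. Changes beyond 2-fold were tested with glmTreat at a log2 change of 1. CPM are TMM-scaled. The interaction used all 12 libraries. On simulated data for the mrn1Δ shift (5793 genes), edgeR recovered 100% of planted changes and glmTreat 72% at a log2 change of 1.5. Of edgeR's calls in that simulation, 5.66% were on unchanged genes. It changed only 200 genes, evenly up and down, whereas 83.5% of genes were called in the real shift. It therefore does not test the scaling where most genes change. The gene lists, the genes named and the comparison were chosen with earlier results of these data known. Named genes were the 10 largest changes each way, per list the extremes, defining members and exceptions, the 10 highest in TPM, the 5 largest interactions each way, MRN1 and its neighbours, genes the study text names, and the 5 steadiest of the 100 most abundant.

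Per the study, replicates were separate cultures; the labels number them without saying more. Depths, of 16231559 to 26542199 counts over the 12 libraries, limit low genes most. Same-numbered mrn1Δ libraries deviated together from their group means (correlations 0.292, 0.166 and 0.371), against −0.327 to 0.0679 for mrn1Δ libraries of unlike number. Wild-type values were 0.237, 0.206 and 0.0709, and wild-type fermentative replicate 3 reached 0.0833 with respiratory replicate 2. The labels state no pairing, and 3 replicates per group are too few to settle one. The main test left a pairing out, and the replicate block took it in. Alternatives were DESeq2 1.42.0, RLE, upper-quartile normalization, library totals alone, other count filters, all 12 libraries in one fit, a replicate block and leaving out each library. Promoters were the 300 bases before the start codon, in RefSeq's R64 sequence, searched on both strands for 5769 genes. Windows can reach into a neighbouring gene. Not every motif searched went with the change. Of promoters with CCAAT, the site of the Hap complex, 14.2% belonged to genes beyond 2-fold higher, against 12.8% without. For PACE these were 9.72% and 13.5%. The carbon source response element matched 13 promoters, with a median log2 change of 0.05 against 0.04 without.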

Additional observations from a re-analysis of the deposited data

Results flagged for a closer look

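The shift differed between mrn1Δ and the wild-type, by the interaction test (edgeR, adjusted p under 0.05), for 65 genes in the positive and 123 in the negative direction. The values that follow are log2 differences, the mrn1Δ change minus the wild-type change. Among genes of carbon use and respiration they were 2.19 for STL1, 1.31 for JEN1, 1.04 for CYB2, 1.32 for ALD3, 1.18 for CYC7, 1.51 for FMP16, 0.76 for NDE2 and 0.68 for PIC2. Among genes of beta-oxidation they were 0.90 for POX1, 0.88 for POT1, 0.83 for FOX2, 0.66 for PXA2 and 0.65 for ECI1. Other positive differences were 1.16 for UIP4, 0.69 for YNL194C, 0.67 for GDH2 and 0.42 for ATH1. Negative differences in mitochondrial enzymes and carriers were −1.06 for MAE1, −0.95 for OAC1 and −0.88 for ALD5. In branched-chain amino acid and methionine synthesis they were −0.78 for LEU9, −0.68 for ILV2, −0.66 for LEU1, −0.65 for BAT1, −0.44 for ILV3 and −0.83 for MET6. At the cell surface they were −1.09 for HPF1, −0.91 for HXT4, −0.75 for NCA3 and −0.72 for FKS1. In protein synthesis and folding they were −0.64 for RRP12, −0.59 for RPF2, −0.51 for YEF3 and −0.60 for CNS1, and for the regulator STD1 the difference was −0.51.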

How the results depend on the processing

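The counts of mrn1Δ genes called, in either direction and at either size, stayed within 1.5 times their main values under each alternative run: rises between 2373 and 2910, falls between 1976 and 2412. Leaving out 1 mrn1Δ library gave 2413 to 2460 rises and 2259 to 2329 falls, and 744 to 763 and 806 to 843 beyond 2-fold. With replicate number as a block there were 2560 rises and 2383 falls; the block added calls of ATP6, GPM1, RPL3 and HPF1 and changed no other mrn1Δ call among the genes named. The interaction was less stable. It gave 116 positive and 323 negative genes with DESeq2, 100 and 60 with library totals alone and 99 and 162 with the block. With 1 library left out it gave 26 to 155 positive and 50 to 346 negative genes. The fewest positive came without mrn1Δ fermentative replicate 1 or 2, the fewest negative without mrn1Δ respiratory replicate 3, and the most of both without wild-type fermentative replicate 2. The shift of 0.169 with library totals alone follows from the scaling itself; small changes near 0 gained or lost a call there, and rises or falls beyond 2-fold were 955 and 688. Depth limits genes such as CYC7, RGI2 and RPC10, at a few CPM in one condition.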
